A study of Mus musculus with 14 samples.

Results

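Line 504 was 1 of 12 cultured Eµ-Myc lines whose RNA was sequenced, in a series of 14 libraries, and its library was set against those of the other 11 cultured lines. Its library is the column of that name, and it was picked for description with earlier results of these data known. In line 504, Dntt and the surrogate light chain genes Vpreb1 and Vpreb2 were called higher than in the other lines, and the kappa constant region gene Igkc and the mu heavy chain gene Ighm were called lower. Each line was grown out of malignant B cells of a different Eµ-MycTg/+ mouse, and GEO's labels list the genotype of these cells as WT. In these mice the immunoglobulin heavy chain enhancer Eµ drives a Myc transgene in the B lineage, and line 504 and all the lines it is set against carry it. All 12 received no treatment and were cultured for 24 h in DMEM-GlutaMAX with 10% FBS and 0.37 mM L-asparagine. The other 2 libraries, lymphomas that line 506 formed in mice, were not used. Each line is 1 library, so line 504 has no replicate of its own. The spread behind every test comes from the other 11 lines, with line 504 assumed to vary as a further line would.

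B cells are built in steps that can be read from their transcripts. RAG1 and RAG2 cut the immunoglobulin loci and terminal deoxynucleotidyl transferase (TdT, encoded by Dntt) adds bases at the joints of the heavy chain gene. The finished mu heavy chain first pairs with a surrogate light chain, made of λ5 (Igll1) and VpreB (Vpreb1, Vpreb2), to form the pre-B cell receptor. A kappa or lambda light chain takes its place once a light chain gene has been joined. By that stage the surrogate chain and TdT have been switched off.

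The promoters of the surrogate light chain genes and of Dntt are shown because these genes carry the stage difference described here. Sequences are from RefSeq (GRCm38.p6), cover 300 bases around the start of each gene and run 5′ to 3′ on the strand of the gene. Capitals mark matches to the E boxes CAGGTG and CAGCTG, to the EBF core CCCNNGGG and to the Ikaros core TGGGAA, each searched on both strands. Igll1 lies at chr16:16863936-16864235 (minus strand), Vpreb1 at chr16:16869206-16869505 (minus strand), Vpreb2 at chr16:17980315-17980614 (plus strand) and Dntt at chr19:41029025-41029324 (plus strand).
Igll1: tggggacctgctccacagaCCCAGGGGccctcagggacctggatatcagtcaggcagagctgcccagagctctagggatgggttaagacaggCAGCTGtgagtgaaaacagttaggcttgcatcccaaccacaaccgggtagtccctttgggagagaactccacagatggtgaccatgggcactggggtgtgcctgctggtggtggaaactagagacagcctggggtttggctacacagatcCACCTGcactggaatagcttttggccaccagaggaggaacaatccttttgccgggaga
Vpreb1: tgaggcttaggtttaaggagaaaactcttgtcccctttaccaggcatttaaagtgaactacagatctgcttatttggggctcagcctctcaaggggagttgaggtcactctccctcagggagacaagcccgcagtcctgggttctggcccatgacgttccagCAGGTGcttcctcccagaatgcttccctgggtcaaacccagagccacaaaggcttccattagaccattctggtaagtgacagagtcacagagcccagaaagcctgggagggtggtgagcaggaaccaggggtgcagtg
Vpreb2: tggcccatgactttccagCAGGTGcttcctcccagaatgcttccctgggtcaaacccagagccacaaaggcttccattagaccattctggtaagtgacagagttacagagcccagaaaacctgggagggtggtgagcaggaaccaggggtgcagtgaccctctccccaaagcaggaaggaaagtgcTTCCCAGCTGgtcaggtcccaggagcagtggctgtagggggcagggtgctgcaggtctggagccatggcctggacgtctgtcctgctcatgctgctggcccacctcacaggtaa
Dntt: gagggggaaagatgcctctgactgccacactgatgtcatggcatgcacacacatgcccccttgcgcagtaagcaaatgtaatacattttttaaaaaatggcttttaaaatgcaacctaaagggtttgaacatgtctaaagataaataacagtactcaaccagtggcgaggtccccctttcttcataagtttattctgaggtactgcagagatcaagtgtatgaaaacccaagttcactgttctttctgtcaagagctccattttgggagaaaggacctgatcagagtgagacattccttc
CAGGTG was found once in each of the 3 surrogate light chain promoters. Its matches start at -8 (Igll1, read as CACCTG), -88 (Vpreb1) and -232 (Vpreb2) from the RefSeq start. In Vpreb1 and Vpreb2 it sits in nearly the same run of bases, and the positions differ with where each start is placed. In the deposited table Vpreb1 begins further upstream, at 16870843. CAGCTG was found at -158 in Igll1 and at -60 in Vpreb2, where it overlaps a match to TGGGAA (TTCCCAGCTG). The Vpreb1 window ends before the bases that would match this stretch, so whether Vpreb1 holds it is not shown. CCCNNGGG was found at -231 in Igll1. The full EBF motif, of which CCCNNGGG is the core, was in none of these promoters, and the Dntt promoter held no match to any of the motifs. Among 32851 promoters of the same length, 20.2% held CAGGTG, 16.3% CAGCTG, 13.7% CCCNNGGG, 25.6% TGGGAA and 0.904% the full EBF motif. The Vpreb1 and Vpreb2 transcripts are 97.4% identical over 759 aligned bases, so the counting could divide reads between them and their separate levels are uncertain.

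The library of line 504 held 29475977 counts over genes, against 24597230 to 32614751 in the other lines, and 17438 genes with a count, against 17050 to 18714. Levels are given as CPM, the counts of a gene relative to the library total after TMM scaling, and 3 counts, the limit that a count of 0 allows, equal 0.102 CPM in line 504 and 0.0875 to 0.122 CPM in the other lines. Some of the other lines are not evenly placed. Lines 506, 549 and 688 resembled each other and shared their leading heavy and kappa V segments, line 524 lay at an extreme of many genes, and line 309 was the most like line 504. Results were therefore also computed without them. B-lineage genes that go with the labelled cell type were present. Pax5, the factor that maintains B-lineage identity, was at 552 CPM in line 504, against a median of 528 CPM in the other lines, and Cd79b, a signal chain of the B cell receptor, was at 403 CPM, against a median of 354 CPM.

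Of 15648 genes tested with edgeR's quasi-likelihood test, 595 (3.80%) passed a Benjamini-Hochberg adjusted p of 0.05, of which 443 (2.83%) were higher in line 504 and 152 (0.971%) were lower. All 595 lay outside the range of the other lines. Of the higher calls, 6 had 0 counts in all the other lines, which then show no spread, so for these no p is given. Lying outside that range is common, since 4825 genes (30.8%) did so, 2733 (17.5%) above and 2092 (13.4%) below. The counts given for gene lists below stand beside these shares and the 3.80% called. The median log2 fold change over all genes tested was -0.09, and the median size of the change among called genes was 4.17 on the log2 scale. The balance of directions depended on the tool, with 503 higher and 799 lower calls by DESeq2 and 936 higher and 91 lower by limma-voom. Line 524, tested the same way against the remaining lines, had 621 calls (3.97%), 445 higher (2.84%) and 176 lower (1.12%). Line 649 had 3 calls (0.0192%), 2 higher (0.0128%) and 1 lower (0.00639%). The numbers of calls were not tested against each other.

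**Figure D1:**
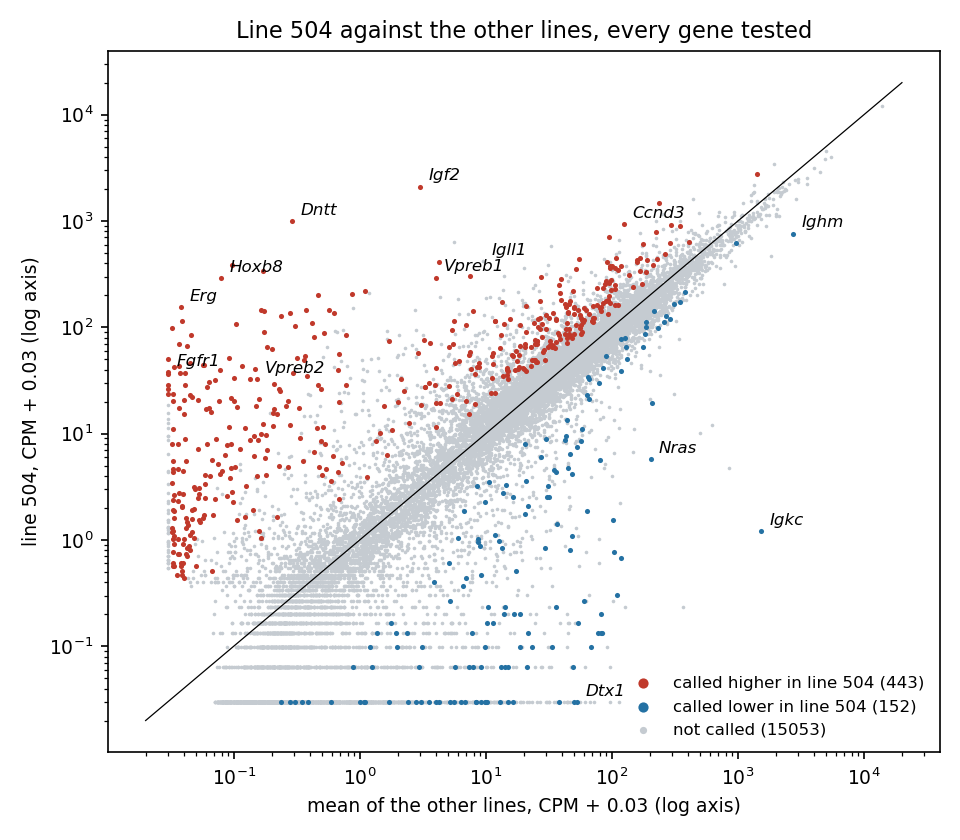
Level of each of the 15648 genes in line 504 (vertical axis) against the mean of the other 11 lines (horizontal axis), both in CPM with 0.03 added, on log axes, with the diagonal as the line of equal levels. Red points are the 443 genes called higher and blue points the 152 called lower in line 504, and Igkc and Nras lie far below the diagonal at high levels in the other lines.

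Dntt, on chromosome 19 (chr19:41029275-41059523 in the deposited table), was at 989 CPM in line 504. Among the other lines it was 0 in lines 505 and 517, and in ascending order 0.0314 (649), 0.0329 (506), 0.0375 (688), 0.0602 (801), 0.0701 (524), 0.284 (309), 0.421 (136), 0.606 (115) and 1.33 CPM (549). Line 504 lay far above all of them, and no other line passed 1.33 CPM. The log2 fold change was 11.90 (SE 1.01, adjusted p = 2.63e-05 in edgeR's quasi-likelihood test), and Dntt was called under all 20 alternative settings.

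Vpreb1 was at 293 CPM in line 504, against 0.0319 (115), 0.0351 (524), 0.568 (309), 0.691 (506), 1.33 (549), 1.69 (517), 2.14 (688), 4.60 (136), 5.33 (505), 10.2 (649) and 17.1 CPM (801). Its log2 fold change was 6.20 (SE 1.35, edgeR adjusted p = 0.0236). The call was lost when line 506 alone was kept of the 3 similar lines, with adjusted p = 0.0867, and over all alternatives adjusted p ran between 0.00112 and 0.0867. Vpreb2, its close copy, was at 32.5 CPM, against 0.122 ± 0.155 CPM in the other lines (SD, n = 11) with a highest value of 0.482 CPM in line 801. It was called with a log2 fold change of 8.00 (SE 1.06, edgeR adjusted p = 0.000991).

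Igll1, which encodes λ5, was at 418 CPM in line 504, against 0 (524), 0.0957 (115), 0.691 (506), 1.16 (688), 1.48 (549), 1.83 (309), 5.46 (505), 8.61 (649), 11.5 (517), 13.1 (136) and 60.9 CPM (801). Line 504 lay above all of them, but the log2 fold change of 5.45 (SE 1.62) did not pass the test (edgeR adjusted p = 0.0931). Without line 801 it passed (adjusted p = 0.0252), as it did with limma-voom, and over all alternatives adjusted p ran between 0.00653 and 0.2. Vpreb3, a VpreB-related gene that is expressed beyond the pre-B stage, was at 332 CPM, against 107 ± 72.2 CPM (SD, n = 11; highest 256 CPM in line 309), and was not called (edgeR adjusted p = 0.398). Of the 4 surrogate light chain genes, all lay above every other line and 2 were called, with a median log2 fold change of 5.83.

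Of 15 genes of the V(D)J machinery tested, Dntt was the single call and the median log2 fold change was 0.30. Above all the other lines lay 6 genes and below them 1, beside 17.5% and 13.4% of all genes. Rag1 was at 119.5 CPM, below lines 309 (133 CPM) and 801 (127 CPM), while the remaining lines lay between 0 and 55.2 CPM. Rag2 was at 32.9 CPM, above the highest other line (27.3 CPM in line 801) and not called (edgeR adjusted p = 0.59). Both recombinase genes were at 0 counts in line 524. Hmgb1, whose protein helps RAG bind DNA, was at 1082 CPM, against 786 ± 103 CPM, and its relative Hmgb2 at 972 CPM, against 783 ± 77.5 CPM (SD, n = 11 each). Atm, which responds to the DNA breaks, was at 60.3 CPM, the lowest of the 12 lines, against 100.4 ± 15.5 CPM (SD, n = 11). None of these 3 passed the test, with edgeR adjusted p-values of 0.277, 0.359 and 0.15.

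**Figure D2:**
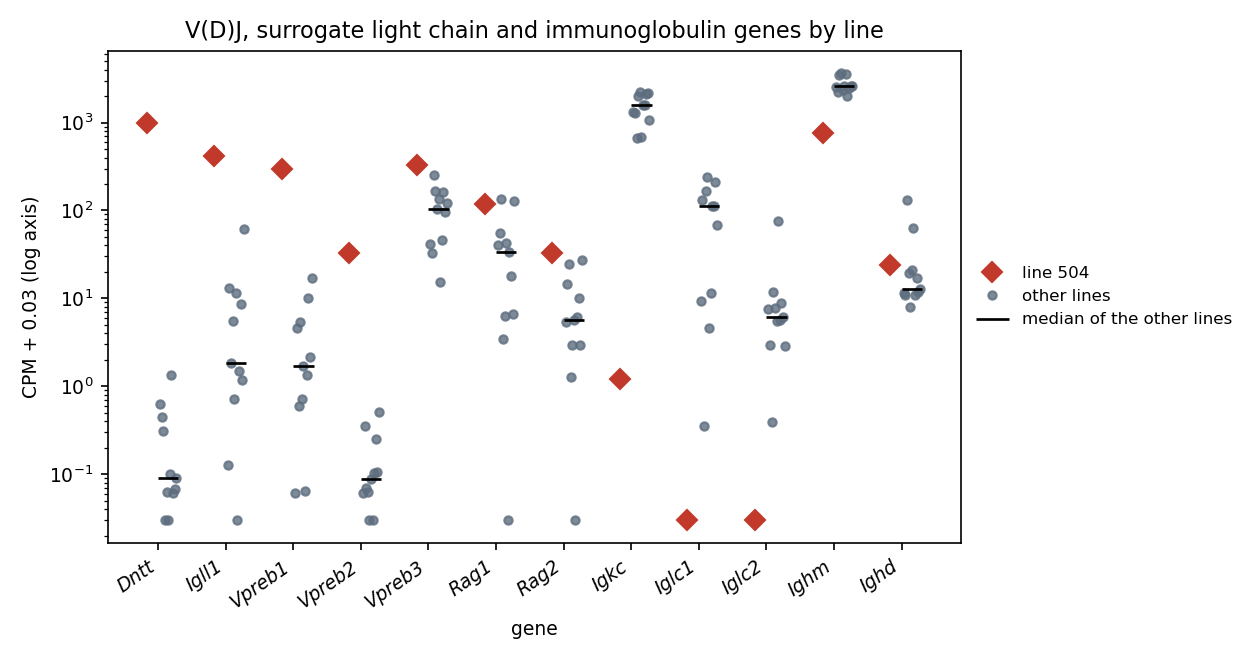
Level of V(D)J, surrogate light chain and immunoglobulin genes in CPM with 0.03 added, on a log axis, for line 504 (red diamonds) and each of the other 11 lines (grey points, with their median as a black bar). Dntt, Igll1, Vpreb1 and Vpreb2 lie above every other line, and Igkc, Iglc1, Iglc2 and Ighm below every other line.

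Light chain transcripts were close to absent. Igkc, the kappa constant region (chr6:70726435-70726966), was at 1.19 CPM (35 counts) in line 504, against 659 (309), 686 (517), 1065 (801), 1292 (136), 1302 (115), 1585 (524), 1593 (549), 1994 (505), 2128 (649), 2185 (688) and 2250.2 CPM (506). No other line came near the level of line 504. Igkc fell by 10.32 on the log2 scale (SE 1.15, edgeR adjusted p = 0.00025), and was called under all 20 alternatives.

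The lambda constant regions Iglc1, Iglc2 and Iglc3 had 0 counts in line 504. Against its floor of 3 counts, that is at least 956-fold lower than the mean of the other lines for Iglc1, at least 120-fold lower for Iglc2 and at least 457-fold lower for Iglc3. None of the 3 was called (edgeR adjusted p = 0.207, 0.174 and 0.157). Iglc1 varied widely among the other lines, between 0.325 CPM in line 309 and 242 CPM in line 506, with a median of 112 CPM. All 3 were called by DESeq2, and Iglc2 also without line 524 in edgeR (adjusted p = 0.0293). Over the constant region list, 2 of 11 genes tested were called lower, Igkc and Ighm, none was called higher and the median log2 fold change was -5.13.

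The mu heavy chain was lower but abundant. Ighm was at 759.6 CPM in line 504, against a lowest value of 2002 CPM (549), a median of 2585 CPM and a highest of 3651 CPM (505). It fell by 1.85 on the log2 scale (SE 0.34, edgeR adjusted p = 0.00976). Ighd, the delta region spliced from the same transcript, was at 24.1 CPM, within the range of the other lines. Compared per length, in CPM per kilobase, line 504 had 403 of Ighm, 465 of Dntt, 263 of Vpreb1, 193 of Igll1 and 2.23 of Igkc. In the other lines the medians on the same scale were 2979 for Igkc and 1.52 for Vpreb1.

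Sums over the chain genes had opposite orders in line 504 and the other lines. Igll1, Vpreb1 and Vpreb2 together reached 744 CPM in line 504, against 0.0351 CPM (524), a median of 3.37 CPM and 78.5 CPM (801), while the light chain constant regions together reached 1.19 CPM, against 661 to 2575 CPM. The log2 ratio of surrogate to light chain transcripts was 9.29 in line 504 and between -15.65 and -3.87 in the other lines. V segments of the light chains were as scarce, with 22 Igkv counts (0.747 CPM, against 460 to 1582 CPM) and 2 Iglv counts (0.0679 CPM, against 1.57 to 137 CPM). Heavy chain V segments held 3577 counts (121 CPM), against 235 to 496 CPM.

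The heavy chain segments were also spread differently. In line 504 the leading segment Ighv3-2 held 774 of the 3577 Ighv counts, or 21.6% (95% Clopper-Pearson interval 20.3 to 23.0%), followed by Ighv1-74 with 693 counts. Of 183 segments, 22 had at least 10 counts. In each other line 1 segment held 65.0% (549) to 99.8% of Ighv counts, and 1 to 6 segments had at least 10 counts. The intervals cover counting error only. Ighv1-72, Ighv1-73, Ighv1-74, Ighv1-75, Ighv1-76, Ighv1-77 and Ighv1-78, singled out after their values were seen, had 25, 80, 693, 689, 406, 162 and 18 counts, all above the other lines.

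**Figure D3:**
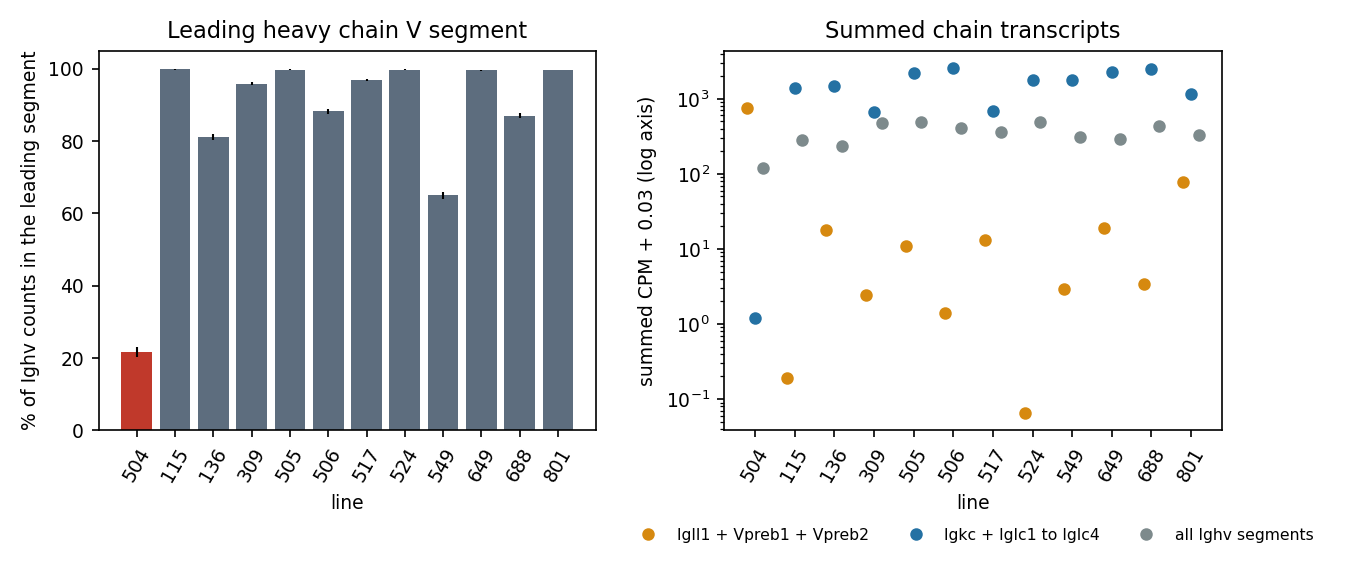
Left, share of Ighv counts held by the leading segment of each line in percent, with 95% Clopper-Pearson intervals as bars, 21.6% in line 504 (red) and 65.0 to 99.8% in the others (grey). Right, summed CPM with 0.03 added, on a log axis, of the surrogate light chain (orange), the light chain constant regions (blue) and the Ighv segments (grey) in each line, where the orange point lies above the blue one in line 504 alone.

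Of 18 progenitor genes tested, Erg was the single call and the median log2 fold change was 0.50. Above all the other lines lay 6 genes and below them 1, beside 17.5% and 13.4% of all genes. Lef1, a partner of beta-catenin high in pro-B and pre-B cells, was at 225 CPM, above every other line (median 2.39, highest 99.0 CPM in line 136). Sox4, needed at the pro-B stage, was at 167 CPM, against a median of 45.0 and a highest of 102 CPM. Il7r, the IL-7 receptor chain, was at 85.6 CPM, against a median of 31.2 and a highest of 72.8 CPM. None of the 3 passed the test (edgeR adjusted p = 0.365, 0.498 and 0.653). Il2ra, the IL-2 receptor alpha chain, was at 1.29 CPM, below all but line 524, against a median of 15.1 CPM, and Cd24a, a surface protein of immature B cells, at 919 CPM, also below all but line 524, against a median of 1513 CPM. Neither was called (edgeR adjusted p = 0.326 and 0.603). Kit and Cd34, both progenitor surface proteins, had 0 counts in all 12 lines, and Ly6d, which marks B-lineage commitment, had 0 counts in line 504, against 0.649 to 141 CPM.

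Among 28 mature B cell genes, 2 were called lower and none higher, and the median log2 fold change was -1.28. Below all the other lines lay 8 genes and above them 2, beside 13.4% and 17.5% of all genes. Ly86, which encodes MD-1, the partner of RP105 on mature B cells, was at 0.17 CPM, against 82.1 ± 37.7 CPM (SD, n = 11; lowest 29.5 CPM), and fell by 8.88 (log2, SE 1.20, edgeR adjusted p = 0.00113; 0.0748 with limma-voom). Fcrla, an intracellular Fc receptor-like protein of B cells, was at 19.2 CPM, against 208 ± 77.0 CPM (SD, n = 11; lowest 102 CPM), and fell by 3.44 (log2, SE 0.71, edgeR adjusted p = 0.0172). Ms4a1, which encodes CD20, had 0 counts in line 504, but it ran between 0.0739 and 534 CPM elsewhere and was not called. No gene of 10 for MHC class II presentation was called, with a median log2 fold change of -4.06. The list summed to 162 CPM in line 504, against a median of 185 CPM and a range of 39.7 to 7530 CPM in the other lines. H2-Aa was at 0.204 CPM, below the lowest other line at 0.292 CPM, while the others had a median of 9.73 CPM and reached 1007 CPM (524). Cd74 was at 12.1 CPM, within a range of 7.78 (136) to 4410 CPM (524).

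Of 29 B lineage transcription factors tested, Runx1 was the single call, and the median log2 fold change was -0.07. Runx1, which acts upstream of Ebf1 in B cell progenitors, was at 89.9 CPM, against 20.8 ± 8.51 CPM (SD, n = 11; highest 45.2 CPM), with a log2 fold change of 2.11 (SE 0.40, edgeR adjusted p = 0.0105). Ebf1 was at 242 CPM, above the highest other line at 189.8 CPM, and Ets1 at 76.8 CPM, below the lowest at 156 CPM, neither called (edgeR adjusted p = 0.364 and 0.0709). Spib, an ETS factor of later B cells, was at 21.2 CPM, below the lowest other line at 60.5 CPM (edgeR adjusted p = 0.163).

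Of 37 genes of B cell receptor signalling tested, 1 was called, beside 3.80% of all genes, and the median log2 fold change was 0.12. Of these genes, 9 lay above and 2 below all the other lines, beside 17.5% and 13.4% of all genes. The receptor's signal chains Cd79a and Cd79b were at 778 and 403 CPM, against medians of 384 and 354 CPM, and Blnk, the adaptor of the pre-B cell receptor, was at 464 CPM, against a highest value of 325 CPM in the other lines (edgeR adjusted p = 0.166). The call was Vav3, a guanine nucleotide exchange factor, at 20.4 CPM, against 0.00295 ± 0.00978 CPM (SD, n = 11), with a log2 fold change of 11.47 (SE 0.71, edgeR adjusted p = 3.33e-06). Its call was lost without line 136, the only other line with a count of Vav3. The remaining lines then show no spread, and the log2 fold change was 12.23. Vav1 and Vav2 were not called (edgeR adjusted p = 0.808 and 0.627).

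In cytokine receptor and JAK-STAT signalling, Stat4 was the single call of 23 genes, and the median log2 fold change was 0.50. Stat4, which transmits IL-12 signals in T and NK cells, was at 32.4 CPM, against 0.105 ± 0.326 CPM (SD, n = 11; highest 1.09 CPM), with a log2 fold change of 8.23 (SE 1.74, edgeR adjusted p = 0.0203). With line 506 alone kept of the 3 similar lines it was not called (adjusted p = 0.0699). No gene of 20 in NF-kB signalling was called, with a median log2 fold change of -0.74.

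The RAS-MAPK pathway held calls in both directions, 1 higher and 2 lower of 26 genes, with a median log2 fold change of 0.59. Nras was at 5.74 CPM (169 counts) in line 504, against 115 (309), 128 (524), 175 (136), 176 (505), 206 (549), 215 (688), 216 (649), 237 (506), 251 (115), 253 (801) and 258 CPM (517). The other lines thus lay within a narrow band far above line 504. Nras fell by 5.14 (log2, SE 0.56, edgeR adjusted p = 0.00023), called under all 20 alternatives, while its relative Hras was not called (edgeR adjusted p = 0.845).

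Rasgrp2, an exchange factor that activates mainly Rap1, was at 352 CPM, against 51.8 ± 23.9 CPM (SD, n = 11; 21.97 CPM in line 688 to 109 CPM in line 524), with a log2 fold change of 2.76 (SE 0.49, edgeR adjusted p = 0.00696). Its relative Rasgrp1, an activator of RAS, had 1 count in line 504, against 49.4 ± 30.9 CPM (SD, n = 11; lowest 3.33 CPM in line 309). It fell by 10.34 (log2, SE 2.60, edgeR adjusted p = 0.0487), close to the threshold. Rasgrp1 stayed called under 6 of 20 alternatives, and leaving out any 1 of lines 115, 505, 506, 517, 524, 549, 649, 688 and 801 ended the call, with adjusted p between 1.5e-06 and 0.612 over all alternatives.

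Of the 26 genes of the list, 9 lay above all the other lines, beside 17.5% of all genes. Among these 9, 6 genes that ERK signalling induces were singled out after their values were seen. They were Etv4 and Etv5, ETS factors that ERK switches on, Dusp6, an ERK phosphatase, and Spry2, Spred1 and Spred2, which act on RAS activation. Line 309 came next in 6 of 6, beside 24.1% of all genes that were highest in line 504 and had a count elsewhere. Phlda1, a gene of the list outside these 6, was also highest in line 504, at 32.0 CPM. There line 524 came next (9.54 CPM), and line 309 was at 2.60 CPM. Dusp4, Dusp5, Spry1 and Egr1, genes of the list that ERK also induces, were within the range of the other lines. They were at 48.8, 131, 1.93 and 20.8 CPM, against highest values of 75.7, 142, 6.16 and 258 CPM. Etv5 was at 315 CPM, against a median of 9.00 and a highest of 178 CPM, and Dusp6 at 189.7 CPM, against 0.486 and 86.9 CPM. Etv4 was at 55.6 CPM and Spry2 at 27.4 CPM, both with a median of 0 in the other lines and highest values of 16.96 and 14.2 CPM. Spred1 was at 211 CPM and Spred2 at 132 CPM, against highest values of 179 and 81.3 CPM. None of the 6 passed the test, and their edgeR adjusted p-values ran between 0.23 (Etv5 and Spred1) and 0.479 (Spry2). The receptor Fgfr1 was at 37.8 CPM in line 504 and had 0 counts in all the other lines. Against the highest floor among the other lines that is at least 311-fold higher.

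**Figure D4:**
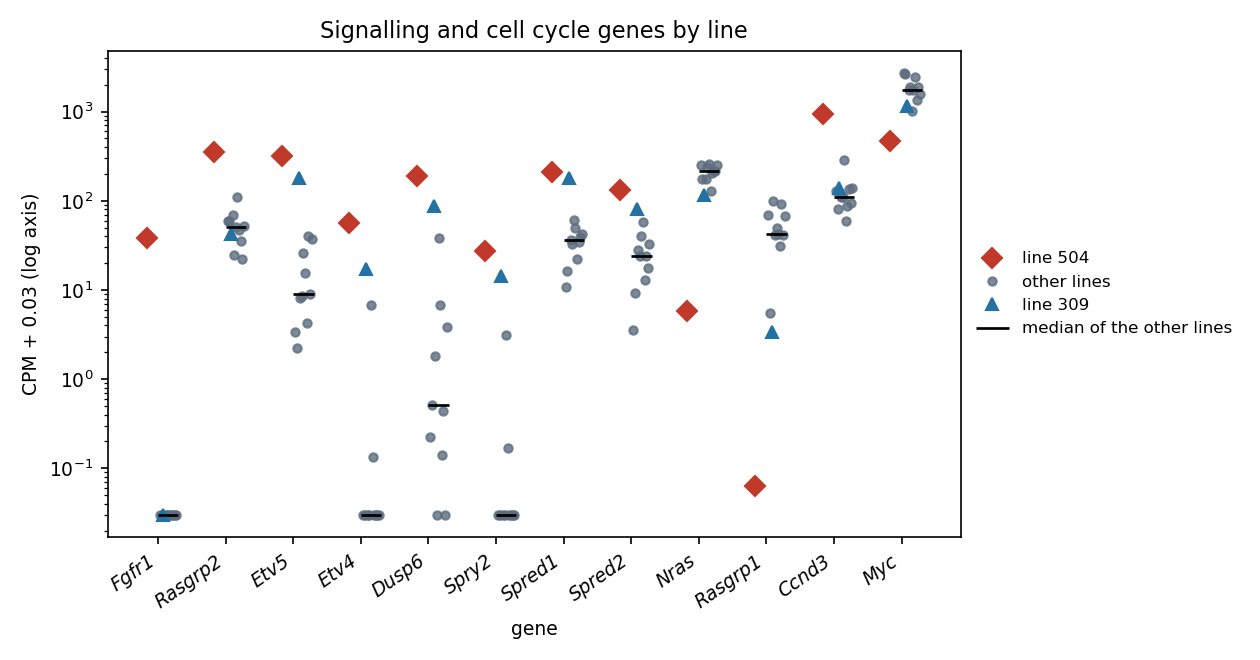
Level of signalling and cell cycle genes in CPM with 0.03 added, on a log axis, for line 504 (red diamonds), line 309 (blue triangles) and the other lines (grey points), with the median of all 11 as a black bar. Etv5, Etv4, Dusp6, Spry2, Spred1 and Spred2, chosen after their values were seen, are highest in line 504 with line 309 next, while Nras, Rasgrp1 and Myc are lowest in line 504.

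In PI3K signalling, 1 of 20 genes was called, with a median log2 fold change of 0.13. Pik3ip1, an inhibitor of PI3K, was at 36.5 CPM, against 8.22 ± 3.17 CPM (SD, n = 11; highest 16.3 CPM), with a log2 fold change of 2.15 (SE 0.41, edgeR adjusted p = 0.0116). Pik3cb, a catalytic subunit, had 0 counts, against 0.7 to 22.8 CPM, and Sgk1, a kinase downstream of PI3K, was at 162 CPM, against at most 24.9 CPM. Both fell just short of the threshold (edgeR adjusted p = 0.0565 and 0.058).

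Of 18 genes of Notch and Wnt signalling, 2 were called higher and 1 lower, with a median log2 fold change of 0.39. Axin2, a target and brake of Wnt signalling, was at 20.2 CPM, against 0.0463 ± 0.117 CPM (SD, n = 11), with a log2 fold change of 8.59 (SE 1.47, edgeR adjusted p = 0.00577; 0.165 with DESeq2). Apc, a part of the complex that degrades beta-catenin, was at 359 CPM, against 106 ± 24.3 CPM (SD, n = 11; highest 143 CPM), with a log2 fold change of 1.75 (SE 0.29, edgeR adjusted p = 0.00414). Apc lies on chromosome 18, whose genes as a whole were higher in line 504, as described below. Notch1 was at 150.3 CPM, against at most 45.4 CPM (edgeR adjusted p = 0.0702). Dtx1, a Notch target, had 0 counts, against 3.33 CPM (309) to 126 CPM, at least 516-fold lower than the mean of the other lines. Its edgeR adjusted p of 0.0469 held under 10 of 20 alternatives and was lost without any 1 of lines 115, 505, 506, 517, 549, 649 and 688, with a range of 4.18e-06 to 0.646.

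In the network of MYC, p53 and the D cyclins, Ccnd3 was the single call of 28 genes, and the median log2 fold change was 0.02. Ccnd3, the D cyclin that pre-B cells need to divide, was at 934 CPM in line 504, against 59.4 (524), 81.1 (136), 87.6 (549), 95.3 (688), 109 (505), 110.1 (506), 129 (115), 136 (649), 138 (801), 139 (309) and 288 CPM (517). Its log2 fold change was 2.90 (SE 0.45, edgeR adjusted p = 0.00296), and it was called under all 20 alternatives. Ccnd2 was at 169 CPM, above the highest other line (90.1 CPM in line 309), and not called (edgeR adjusted p = 0.556).

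Myc, with reads of the endogenous gene and the transgene counted together, was at 469.8 CPM, the lowest of the 12 lines, against 1833 ± 579.5 CPM (SD, n = 11; 1012 CPM in line 517 to 2720.3 CPM in line 115). The log2 fold change of -1.96 (SE 0.54) missed the threshold (edgeR adjusted p = 0.069). It passed without line 309 (0.0473), without line 517 (0.0403), with DESeq2 and with limma-voom, with adjusted p between 0.00119 and 0.146 over all alternatives. Trp53 was at 316 CPM, above the highest other line at 275 CPM, and the tumour suppressor Cdkn2a at 0.577 CPM, within a range of 0 to 211 CPM. Neither was called (edgeR adjusted p = 0.855 and 0.54).

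Tyms, which makes thymidylate for DNA synthesis, was the single call of 26 proliferation genes, at 116 CPM, against 36.3 ± 9.42 CPM (SD, n = 11; edgeR adjusted p = 0.00935), while the median log2 fold change was 0.08. Mki67 was at 838 CPM, against a median of 788 CPM. Of 23 genes of the amino acid response, Cebpb was called lower, at 0.577 CPM, against 5.10 ± 1.66 CPM (SD, n = 11; edgeR adjusted p = 0.0388). That call stood under 10 of 19 alternatives, ending without any 1 of lines 115, 136, 506, 549, 649 and 688, and its adjusted p ran between 0.000182 and 0.105. Asns, the asparagine synthetase, was at 60.2 CPM, within a range of 0.0314 (649) to 268 CPM (309), and its regulator Atf4 was at 331 CPM, against a median of 328 CPM.

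Of the other lists, that of adhesion and homing had 20 genes tested, with a median log2 fold change of 0.34. The single call was Cxcr3, a chemokine receptor, at 2.68 CPM, against at most 0.105 CPM (log2 fold change 7.64). Its call was lost without line 524, the only other line with a count of Cxcr3. The remaining lines then show no spread, and its log2 fold change was 9.31. The integrin chain Itga6 was at 275 CPM, against at most 83.0 CPM (edgeR adjusted p = 0.0685), and Itgal at 193 CPM, against at most 76.0 CPM (0.352). No gene of 18 for the interferon response, 17 immediate early and heat shock genes or 5 sex-linked genes was called. Their median log2 fold changes were 0.15, -0.75 and -9.50. Of the 6 genes of the sex-linked list, 5 were under 1 CPM in line 504 and the highest was at 767 CPM. The genes tested included the Y-linked Ddx3y, Kdm5d, Uty and Eif2s3y. Sums over the list varied widely among the other lines, between 0.843 and 743 CPM. Of 11 germinal centre and plasma cell genes, Gcsam, an adaptor of germinal centre B cells, was called higher.

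Ranked by log2 fold change among called genes at 10 CPM or more in line 504, the 12 largest increases were led by genes that the other lines barely expressed. Erg, an ETS factor of blood stem cells and endothelium, was at 155 CPM, against at most 0.0583 CPM, with a log2 fold change of 13.52 (SE 0.72, edgeR adjusted p = 1.05e-06). Hoxb8, a homeobox gene that keeps blood progenitors from differentiating when overexpressed, was at 288 CPM, against at most 0.227 CPM, with a log2 fold change of 12.41 (SE 0.86, edgeR adjusted p = 5.81e-06). Tmem119, known in the brain as a microglial surface protein, was at 387 CPM, against at most 0.325 CPM, and Cd160, a receptor of NK and T cells, at 113 CPM, against at most 0.037 CPM.

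Gcsam was at 42.5 CPM, Scn4b, a sodium channel subunit, at 69.5 CPM and Jam2, a junction adhesion molecule, at 85.2 CPM, each with at most 0.175 CPM elsewhere. Scn4b and Jam2 were not called by DESeq2 (adjusted p = 0.0991 and 0.118). Ptprm, a receptor phosphatase, at 50.4 CPM, Cav1, the caveolae protein caveolin, at 36.2 CPM and Dlg2, a scaffold protein, at 28.4 CPM had 0 counts in all the other lines. Against the highest floor of the other lines they were at least 414-fold, 298-fold and 233-fold higher. Fgfr1, described above, was also among the largest increases. With line 506 alone kept of the 3 similar lines, Scn4b was not called, and neither were Ptprm, Fgfr1, Cav1 and Dlg2. Each of these genes then had 0 counts in every line left beside line 504, so those lines show no spread. The log2 fold change of Scn4b was 14.03 there, against 12.71 with all lines. Over all alternatives, Dlg2 was called under 13 of 19 and Cav1 under 17 of 19.

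Among the 12 largest decreases, 6 had 0 counts in line 504. Pja1, a ubiquitin ligase, was 1 of them, against 40.1 to 64.2 CPM in the other lines, so line 504 was at least 488-fold below their mean (edgeR adjusted p = 5.7e-07). Magohb, a part of the exon junction complex, had 0 counts, against 9.82 to 30.9 CPM elsewhere, and line 504 was at least 161-fold below their mean (edgeR adjusted p = 9e-05). The others at 0 were Dtx1, Dclk2, Zfp827 and Znf41-ps. Dclk2, a doublecortin-like kinase, had 0 counts, against 38.2 ± 22.8 CPM elsewhere (SD, n = 11). Its edgeR adjusted p of 0.0406 did not hold without any 1 of lines 115, 136, 506, 517, 549, 649, 688 and 801, with a range of 8.78e-06 to 0.627 over all alternatives. Pdlim1, a cytoskeletal adaptor, had 3 counts, against 81.9 ± 26.1 CPM (SD, n = 11; edgeR adjusted p = 0.000182), and Mllt4, which encodes the junction protein afadin, had 3 counts, against 83.6 ± 29.3 CPM (SD, n = 11; 0.00036). Celsr2, a cadherin, and Mast4, a kinase, had 2 and 3 counts (edgeR adjusted p = 0.0198 and 0.0236). With limma-voom, Zfp827, Znf41-ps, Celsr2, Mast4 and Mllt4 were not called (adjusted p = 0.404, 0.279, 0.412, 0.44 and 0.065). The remaining decreases were Rasgrp1 and Igkc.

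T cell markers summed to 11.3 CPM in line 504, against 14.0 to 139 CPM, with 12 of 20 at 0 and Cd3e, Cd4, Cd7, Trbc2 and Bcl11b at 0 in all lines. Myeloid markers summed to 20.9 CPM, against 3.37 to 49.5 CPM, with 11 of 20 at 0 and S100a8, S100a9, C1qa, C1qb and Ly6g at 0 in all lines. Of 7 myeloid genes tested, 2 were called higher, Lyz2 at 1.46 CPM (edgeR adjusted p = 0.00531) and Csf1r at 4.96 CPM (0.0258, and 0.0911 with line 506 alone kept of the 3 similar lines). Markers of stroma, vessel and red cells summed to 157 CPM, against 30.7 to 201 CPM, of which Pecam1, also known as CD31, gave 152 CPM, above all the other lines (at most 117 CPM) and not called. Pdgfrb was called higher at 1.56 CPM (edgeR adjusted p = 0.00302). The vessel marker Kdr had 0 counts, with 1 count in total over the other lines. Cdh5, also a vessel marker, had 1 count, against 0.486 to 2.77 CPM. Csf1r and Pdgfrb lie on chromosome 18. The part of other cells in these calls was not tested.

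Levels were also compared by chromosome. For each gene with enough signal the deviation from the 12-line median of log2 CPM was taken. On chromosome 18 its median over 242 genes was 0.55 in line 504, against -0.09 to 0.03 in the other lines. There 52 of 374 genes tested were called (13.9%), 49 higher (13.1%) and 3 lower, and 46.8% lay above all the other lines. All 9 windows of 10 Mb with at least 10 genes lay above every other line, with medians of 0.23 to 0.84. On chromosome 3 the median over 467 genes was -0.42, against -0.35 (309) to 0.19, and 26.1% of 827 genes tested lay below all the other lines. All 13 windows with at least 10 genes there had a median below 0 in line 504. In 8 of them line 504 was the lowest line, and in the other 5 line 309 was. On chromosome 14 the median was 0.11 in line 504, against -0.13 to 0.04, with 35 of 499 genes called (7.01%) and 27.7% above all the other lines. Nras is on chromosome 3. With chromosome 18 alone left out, 394 of 15212 genes on the autosomes and the X chromosome (2.59%) were called higher and 149 lower. These genes include those of chromosomes 3 and 14.

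**Figure D5:**
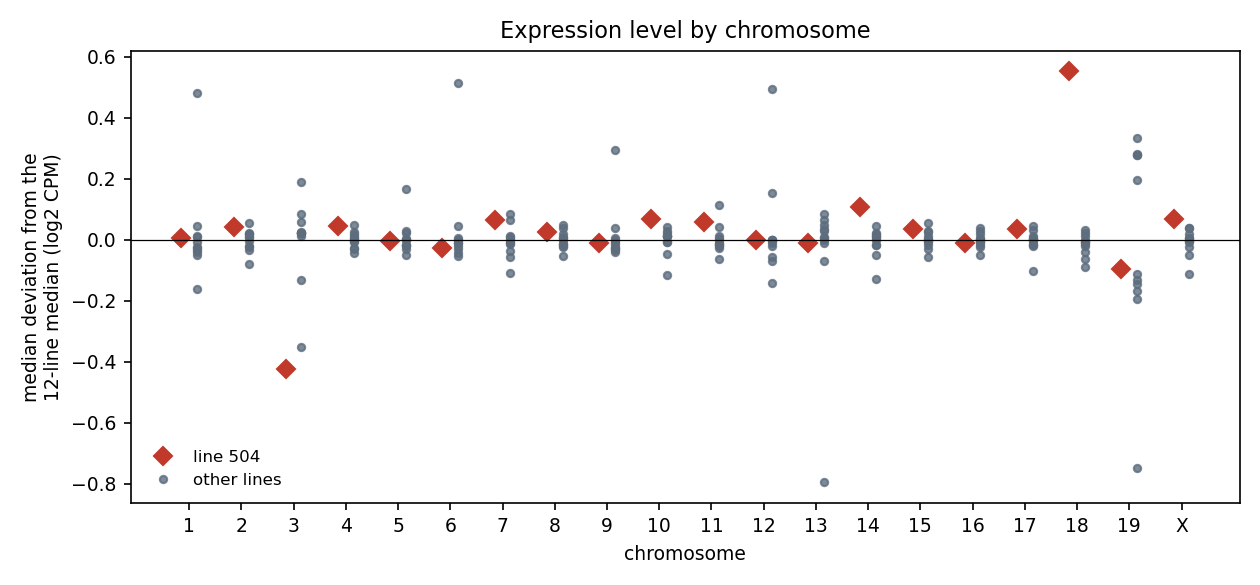
Median over the genes of each chromosome of the deviation from the 12-line median of log2 CPM, for line 504 (red diamonds) and the other 11 lines (grey points), with 0 as no deviation. Line 504 is the highest line on chromosome 18 (0.55) and the lowest on chromosome 3 (-0.42).

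Line 309 was the nearest to line 504. Over the 500 genes that varied most among the other lines, Spearman's correlation with line 504 was 0.569 for line 309, 0.293 for line 801 and 0.273 for line 505, between 0.143 and 0.270 for the 7 lines 688, 549, 506, 517, 136, 649 and 115, and -0.00461 for line 524. These are across genes, which are not independent, and all lines share the culture and the transgene. Of the 2682 genes that were highest in line 504 and had a count elsewhere, line 309 was the next highest in 24.1%, against 13.6% of all genes in which it was the highest of the other lines. For line 524 the same shares were 17% and 18.3%. Among the stage genes, line 309 had the highest Rag1 (133 CPM) and Vpreb3 (256 CPM) of the other lines and the lowest Igkc (659 CPM), Iglc1 (0.325 CPM) and Iglc2 (0.365 CPM). Its Dntt (0.284 CPM), Igll1 (1.83 CPM) and Vpreb1 (0.568 CPM) were not the highest of the other lines.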

How the data were processed

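RNA of cultured lines was extracted as total RNA, made into libraries with the TruSeq Stranded mRNA kit and sequenced as 2 x 75 bp on a NextSeq 500, per the labels' protocols. The authors deposited raw counts per gene, and the submitters' processing notes name the tools STAR 2.4.0, featureCounts and Subread 1.5.0-p3 and the build mm10 (GRCm38). The strand setting of the counting is not given in the sources used here, so overlapping and antisense genes are uncertain. The 100 spike-in and phage entries stayed out of library sizes and tests.

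From the 46959 gene entries, genes were kept by filterByExpr and tested with edgeR 4.0.16 in R 4.3.3 (TMM, quasi-likelihood, 10 residual degrees of freedom, Benjamini-Hochberg over all genes). The SE is the log2 fold change over the root of the F statistic. Alternatives used DESeq2 1.42.0, limma 3.58.1, other scalings and filters, and each other line left out. An exact permutation test of 1 line against 11 could not reach 0.05. Lines come from different mice and replicate numbers pair nothing. Floors are 3 counts, and intervals cover counting error only. Line 504, its 4 markers and the 24 gene lists were chosen with earlier results of these data known. Named genes were the markers, fixed stage genes, the 12 largest changes each way at 10 CPM or more and the 4 smallest p-values per list, beside other list members. Some genes that met this rule are not reported here. The edgeR test of line 504 alone was also run on simulated data. Those data used the dispersions of its own fit and lines drawn independently, so they cannot vouch for the calls.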

Additional observations from a re-analysis of the deposited data

Results flagged for a closer look

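Counts of the phage phiX174, a sequencing control that belongs to no gene comparison, stood at 5 in line 504, against 6 to 534 in the other lines, the highest in line 136, and were flagged as a signal outside the gene measurements.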

How the results depend on the processing

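The 595 genes called in line 504 against the other 11 lines became 1302 with DESeq2 (503 higher and 799 lower, 445 shared), 1027 with limma-voom (936 and 91, 519 shared), 341 at a mean of at least 5 CPM, where fewer genes were tested, 322 with line 506 alone kept of lines 506, 549 and 688, and 1281 with lines 309 and 524 left out, the last 2 chosen after seeing the data. Leaving out 1 line gave 452 (549) to 853 (524). For line 524 the 621 calls became 1056 with DESeq2, 1153 with limma-voom and 391 at 5 CPM, and for line 649 the 3 calls became 218 with DESeq2, 23 with limma-voom and 6 with no filter. In line 504, Ighv3-2 led all V counts with 21.5%, and Igkv3-7, with 7 counts, led the light chain V counts alone with 29.2%. Spearman's correlation with line 309 was 0.569, and 0.925 over all genes. Ighd changed sign to 0.40 with limma-voom, 0.37 without line 309 and 0.82 without lines 309 and 524, and Asns to 0.39 with limma-voom, the cause of which was not tested. For 45 named genes called, 810 of 881 alternative values kept the call, 71 lost it and 0 reversed. For 76 not called, 1411 of 1495 stayed, 80 passed and 4 reversed. DESeq2 gave no adjusted p for 14 named genes, Igll1, Vpreb1 and Stat4 among them. No paired analysis was possible because each line comes from a different mouse, numbers given in accession order pair nothing, and line 504 is 1 library. Line 504 has 1 library, so its own culture variation is unknown.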

Other observations

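Several gene groups that no list held stood out in line 504, chosen after their values were seen, so their counts support nothing. Of 8 genes of the Hoxb cluster tested, 5 lay above all the other lines and 2 were called, Hoxb8 and Hoxb7 (49.7 CPM, against a mean of 0.328 CPM, edgeR adjusted p = 0.0238). Hoxb6 (32.2 CPM), Hoxb3 (24.0 CPM) and Hoxb5 (14.9 CPM) were not called, and Hoxb9 at 30.6 CPM lay below line 136 at 39.6 CPM. All 8 Gimap genes, GTPases of lymphocytes, lay above all the other lines, but line 524 came close in some. Gimap9 was at 66.3 CPM, against 65.0 CPM in line 524, and Gimap5 at 44.4 CPM, against 43.6 CPM there. Gimap1 was at 87.7 CPM, against 67.5 CPM in line 524. Gimap3 was called (146 CPM, against a mean of 0.134 CPM, edgeR adjusted p = 0.00165), and Gimap4 reached 632 CPM, against at most 60.8 CPM in line 524.

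Igf2, a fetal growth factor, was at 2103 CPM in line 504, against 2.98 ± 9.33 CPM in the other lines (SD, n = 11; highest 31.1 CPM in line 517), with a log2 fold change of 9.44 (edgeR adjusted p = 0.0192). Its imprinted neighbour H19 was at 111 CPM, against a mean of 0.391 CPM (edgeR adjusted p = 0.00937), while Igf2r, the receptor that clears IGF2, had 5 counts, against a mean of 43.9 CPM, and was not called (edgeR adjusted p = 0.0711). Some genes often seen in vessels were high. Eng was at 339 CPM, against a mean of 0.141 CPM, and Egfl7 at 305 CPM, against 7.47 CPM, both called. Among vessel markers, Pecam1 was at 152 CPM, against at most 117 CPM and not called, and Cdh5 had 1 count. Kdr, Tek and Vwf had 0 counts, but the other lines also barely held them. Kdr and Tek had 1 count each in total there, and Vwf had a median of 0 CPM. The part of vessel cells in these values was not tested.

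Lower calls included 12 genes of nucleolar and ribosome assembly, picked because they were called, with a median log2 fold change of -0.80. Nop2 was at 167 CPM, against a mean of 312 CPM, Wdr3 at 120.1 CPM, against 289 CPM, Polr1a at 129 CPM, against 268 CPM, and Ddx21 at 614 CPM, against 960.03 CPM.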
